A study of Mus musculus with 4 samples.

Results

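The regions described here are the 436 candidate spliced regions of the Dtt experiment that remove more than 5 kb, of the 2533 regions in the Dtt list. They were chosen by the splice length that the Read-Split-Walk (RSW) method measured, which had to be above 5000 bp and could not pass the 40 kb limit of the method. Every listed region also had to have at least 2 supporting reads, so its length and its presence in the list are not findings. RSW takes reads that do not map whole to the genome or to known junctions, splits each at every allowed position and looks for places where both parts map in the same gene. A region is therefore a gap, a stretch of genome that is absent from the read.

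The reads came from mouse embryonic fibroblasts (MEFs) of the C57BL/6 strain. In the Dtt experiment, *Ire1*α heterozygous (Het) cells were treated with 1 mM dithiothreitol for 4 h. Dithiothreitol reduces disulfide bonds and stresses the endoplasmic reticulum (ER). The *Ire1*α knockout (KO) cells of this experiment carried a null allele without the kinase and RNase domains, and the sample labels and the study's methods differ on whether they were treated. The Tg experiment, used here only for its list of regions, had Het cells treated with 500 nM thapsigargin for 4 h and KO cells with a floxed allele that loses the kinase domain. Both Het lines kept 1 working *Ire1*α allele. Each genotype had 1 library in each experiment, so no value has a replicate check, and regions are not replicates. Regions that RSW also found in the KO library had been left out of the list, so no KO level can be set beside any value. The total number of reads of the library was not used here, and the depth behind a region is its number of supporting reads. Of 10 fibroblast marker genes, 6 had a region in the Dtt list and 0 had a region over 5 kb, which is no measure of their expression.

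When introns are removed from a pre-mRNA, the spliceosome cuts at a donor, where the intron begins with GT, and at an acceptor, where it ends with AG. Most introns are removed between neighbouring exons, and skipping an exon or using another donor, acceptor or first exon yields a different mRNA from the same gene. IRE1α is the ER stress sensor whose RNase removes a short intron from *Xbp1* mRNA without the spliceosome, and the cut sites it recognises are not GT and AG.

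The sequences that carry the main patterns are the splice sites of the regions with the most reads and of the genes whose regions share an end. In each donor window the last 10 bases before the gap and the first 20 bases of the gap are given, in each acceptor window the last 20 bases of the gap and the next 10 bases, read 5′ to 3′ on the strand of the gene from the mm9 assembly. Capitals mark the GT at the start or the AG at the end of the gap. *Igfbp2*, which encodes a secreted protein that binds insulin-like growth factors, is shown because 3 of its gaps end at the same base. Its gaps are chr1:72872049-72895659, chr1:72872061-72895659, chr1:72879201-72895659 and chr1:72871539-72895663, all on the plus strand.
Igfbp2 donor, 23611 bp gap: gcgttgggagGTgaggagaagggtaaggat
Igfbp2 donor, 23599 bp gap: gaggagaaggGTaaggatgcacgtggagaa
Igfbp2 donor, 16459 bp gap: tgttcctgggGTaagatggctgtggtgggg
Igfbp2 donor, 24125 bp gap: caggttgcagGTaatgcggactgtgagcac
Igfbp2 acceptor, 23611, 23599 and 16459 bp gaps: cttcctctctttctctgcAGacagtgatga
Igfbp2 acceptor, 24125 bp gap: ctctctttctctgcagacAGtgatgacgac

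*Senp6*, the gene of a protease that removes SUMO from proteins, is shown because it has the region with the most reads. Its gaps chr9:79915380-79940073 and chr9:79915380-79951500 on the plus strand begin at the same donor. *Abi3bp*, the gene of an extracellular matrix protein that binds ABI3, has the gaps chr16:56613834-56642601, chr16:56613367-56642601 and chr16:56611198-56642601 on the plus strand, which end at the same acceptor.
Senp6 donor, 24694 and 36121 bp gaps: ttcctgaaagGTacgctcgggtctccctcg
Senp6 acceptor, 24694 bp gap: atctgtggatctttttgcAGttaaatcgga
Senp6 acceptor, 36121 bp gap: atttacatttcctcttgtAGgaaagaatac
Abi3bp donor, 28768 bp gap: cccaaaattgGTaattctgcatcctctctt
Abi3bp donor, 29235 bp gap: tccaaacctgGTaaatgtgacatttagggt
Abi3bp donor, 31404 bp gap: acaacaaaggGTaaaactgcttccttgatc
Abi3bp acceptor, all 3 gaps: ctattatgtctttcctttAGcacccaggca

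The next windows are ends that GENCODE vM1 does not list, in *Papd4* and in some of the regions of this kind with 5 or more reads. *Myh9* encodes a heavy chain of nonmuscle myosin, *Sec31a* a coat protein of vesicles that leave the ER, *Rin3* an exchange factor for Rab5 GTPases and *Papd4* a cytoplasmic poly(A) polymerase. The gaps are chr15:77643662-77666440 in *Myh9*, chr5:100837133-100844932 in *Sec31a* and chr13:93947218-93954033 and chr13:93947214-93954033 in *Papd4* on the minus strand, and chr14:21187175-21193551 in *Fam149b* and chr12:103612089-103620820 in *Rin3* on the plus strand.
Myh9 donor, 22779 bp gap: gaagttgctgGTgagtggtgaggcttcctg
Sec31a donor, 7800 bp gap: ctgctcgggaGTgagtttgaggttaacctt
Fam149b donor, 6377 bp gap: ccccagaactGTgagaaaataagtgtctat
Rin3 acceptor, 8732 bp gap: atgtacgtgctggcccgcAGcaacctcact
Papd4 acceptor, 6816 bp gap: ttttcccttttttctttgAGacagggtctc
Papd4 acceptor, 6820 bp gap: cccttttttctttgagacAGggtctcatgt

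The splice lengths of the 436 regions ran from 5005 to 39231 bp, with a median of 9481.5 bp and quartiles of 7004 and 15496 bp. From 5 to 10 kb there were 229 regions (52.5%), from 10 to 20 kb 134 (30.7%), from 20 to 30 kb 55 (12.6%) and from 30 to 40 kb 18 (4.13%). Regions near the limit of the method were few. The longest gap was in *Rsu1*, the gene of a Ras suppressor protein, with 39231 bp. It was followed by *Pvt1*, a long noncoding RNA gene beside *Myc*, with 38626 bp, *Eif3h*, which encodes a subunit of translation initiation factor 3, with 36868 bp, *Sh3bp4*, an endocytosis gene, with 36295 bp, and the second gap of *Senp6* with 36121 bp. All 5 had 2 reads.

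At the lower limit, the nearest regions above were those of *Cox15* with 5005 bp, *Rtf1* with 5011 bp and *Smurf2* with 5012 bp, each with 2 reads. Just below it lay *Hemk1* with 4992 bp and 2 reads, *Ankrd27* with 4984 bp and 3 reads, and *Cbx1* with 4980 bp and 5 reads. The limit of 5 kb therefore cuts through a continuous range of lengths.

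Read support was low. The 436 regions had 1043 of the 6436 supporting reads of the Dtt list (16.2%), a mean of 2.39 per region. There were 331 regions with 2 reads (75.9%), 68 with 3 (15.6%), 24 with 4 (5.5%) and 13 with 5 or more. The paper proposes that candidates with 2 to 4 reads are probably false positives. The mean was 2.37 reads from 5 to 10 kb, 2.31 from 10 to 20 kb, 2.75 from 20 to 30 kb and 2.22 from 30 to 40 kb. The share with 3 or more reads was 24.1% (105 of 436, 95% Wilson interval 20.3% to 28.3%), against 22% of the 778 regions of 1 to 5 kb and 25.6% of the 840 regions of 50 to 1000 bp. Neither difference passed the test (odds ratio 1.13, adjusted p = 0.519, and 0.922, adjusted p = 0.589; two-sided Fisher's exact tests on numbers of regions, Benjamini-Hochberg adjusted over the 12 tests of this kind).

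**Figure D1:**
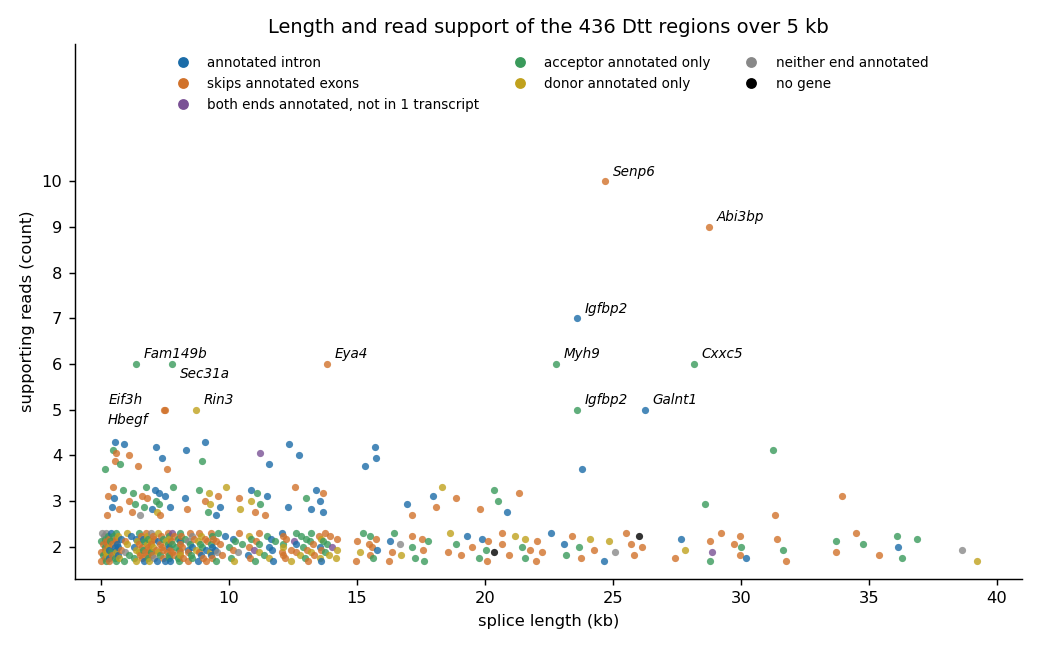
Splice length in kb (x axis) against the number of supporting reads (y axis) of the 436 regions, coloured by how their ends meet the annotation. Points with 2 to 4 reads are spread vertically around their whole number so that they can be told apart. The 13 regions with 5 or more reads carry their gene names, and the 331 regions with 2 reads cover the whole range of lengths.

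The 13 regions with 5 or more reads lay in 12 genes. *Senp6* had 10 reads for its gap of 24694 bp, the 18th place of the whole Dtt list. Its donor is in the first exon, and the gap skipped 2 coding exons, 152 bases, of the transcript Senp6-201. *Abi3bp* came next with 9 reads for 28768 bp and skipped 1 coding exon of 63 bases of Abi3bp-202. *Igfbp2* had 7 reads for 23611 bp, an annotated intron that leads from a 5′ UTR exon to a coding exon.

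A group of 5 regions had 6 reads. *Eya4*, the gene of a transcriptional coactivator with phosphatase activity, had a gap of 13844 bp that skipped 1 coding exon of 93 bases. In *Myh9*, the gap of 22779 bp began in the intron, 5946 bp downstream of the nearest annotated donor, and ended at an annotated 5′ UTR exon. In *Sec31a*, the gap of 7800 bp began 189 bp downstream of the nearest annotated donor and also ended at a 5′ UTR exon. *Fam149b* had a gap of 6377 bp whose donor lay within an exon, 4502 bp from the nearest annotated donor. The gap of 28153 bp in *Cxxc5*, which encodes a CXXC zinc finger protein, began 253 bp after an annotated donor. Thus the donor was unannotated in 4 of these 5 regions.

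The other 5 regions of this group had 5 reads. *Galnt1*, which encodes an enzyme that starts mucin-type O-glycosylation, had an annotated intron of 26247 bp within its 5′ UTR. *Hbegf*, which encodes a growth factor that binds the EGF receptor, had a gap of 7482 bp that skipped 1 coding exon of 178 bases. *Eif3h* had a gap of 7499 bp that skipped 1 coding exon of 150 bases. In *Rin3* the acceptor of the gap of 8732 bp lay 58 bp inside a coding exon. The fifth was the 23599 bp gap of *Igfbp2*, which began 12 bp after the annotated donor of the 23611 bp gap. A skipped exon whose length is a multiple of 3 leaves the reading frame in place, which was so for those of *Abi3bp*, *Eya4* and *Eif3h* and not for those of *Senp6* and *Hbegf*.

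The boundaries carried the sequence of spliceosomal introns. On the strand of the gene, 420 of the 436 regions (96.3%, 94.1% to 97.7%) could be placed with GT-AG at their ends, against 92.7% of the regions of 1 to 5 kb and 86.9% of those of 50 to 1000 bp. The odds ratios were 2.08 (two-sided Fisher's exact test, adjusted p = 0.0195) and 3.96 (adjusted p = 3.89e-08). Regions of 1 gene or with a shared end are not independent, and these tests compare lists of regions of 1 library. With regions of at least 3 reads only, the first difference no longer passed Fisher's exact test (odds ratio 4.44, adjusted p = 0.179), nor did it without the regions that skip exons (odds ratio 1.69, adjusted p = 0.0979).

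Of the 16 regions without GT-AG on the strand of a gene, 12 had it on the opposite strand, 2 for which no gene was found had it on 1 of the strands, and 2 had it on neither. Counted on either strand, 434 of 436 regions had GT-AG. Each of the 12 gaps was assigned, by symbol or by position, to a gene on the strand opposite to its GT-AG. The gap of 5044 bp listed under *Traf3ip2* matched an annotated intron of E130307A14Rik on the other strand, and that of 5222 bp under *Pi4kb* an annotated intron of Gm15265. Both ends of the 9553 bp gap under *Fyb* were annotated splice sites of Gm2245, and 1 end of the 16683 bp gap under *Fbxl13* was a site of Lrrc17. In *Adamts9*, the gene of a secreted metalloproteinase, the gap of 6957 bp had 1 end at a site of A730049H05Rik. The 6525 bp gap under *Airn*, a noncoding RNA gene antisense to *Igf2r*, had 3 reads and no annotated end on either strand. GT-AG was found on neither strand in *Snrnp48*, a gene of the minor spliceosome, where the gap of 9378 bp ran from GC to AG and skipped 2 coding exons, and in *Brcc3*, which encodes a deubiquitinase, where the gap of 12568 bp ran from AT to AG between annotated sites of different transcripts. The genes of this paragraph were picked after their values were seen.

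Compared with GENCODE vM1, most of the regions joined known splice sites. Here and below, sites were counted only on the strand of the gene, so the sites on the other strand named above are left out. Both ends were annotated sites in 250 of 436 (57.3%, 52.7% to 61.9%), against 37.5% of the regions of 1 to 5 kb and 23.6% of those of 50 to 1000 bp. Both differences passed the test (odds ratio 2.24, adjusted p = 1.26e-10, and 4.36, adjusted p = 1.80e-31; two-sided Fisher's exact tests). The regions with exactly 1 annotated end made up 39% (170 of 436, 34.5% to 43.6%), against 56.7% and 66.5% (odds ratio 0.488, adjusted p = 1.22e-08, and 0.321, adjusted p = 3.72e-20). Both measures depend on the gaps that skip exons, which span at least 2 introns and an exon and so tend to be long by construction. Both ends were annotated with no exon skipped in 20.6% of the 436 regions, 18.8% of those of 1 to 5 kb and 18% of those of 50 to 1000 bp. With the regions that skip exons left out of every class, the odds ratios were nearer to 1, at 1.61 (adjusted p = 0.0092) and 2.06 (adjusted p = 9.76e-05) for both ends and 0.695 (adjusted p = 0.0258) and 0.671 (adjusted p = 0.0126) for exactly 1 end, by the same exact tests. A larger part of the regions over 5 kb than of the shorter classes is left out in this way, so these tests are also tied to length. In 14 regions neither end was an annotated site on the strand of the gene, whatever lay on the other strand. For 2 regions, listed under *Slc8a1* and *Slc14a2*, no gene was found in the annotation.

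Among the long regions the share with both ends annotated was 55.9% from 5 to 10 kb, 59% from 10 to 20 kb and 58.9% from 20 to 40 kb. It was therefore similar over the whole range, with intervals of 49.4% to 62.2%, 50.5% to 66.9% and 47.4% to 69.5%. Of the 250 regions with both ends annotated, 182 joined a coding exon to a coding exon, 28 a 5′ UTR exon to a coding exon and 25 a 5′ UTR exon to another 5′ UTR exon.

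**Figure D2:**
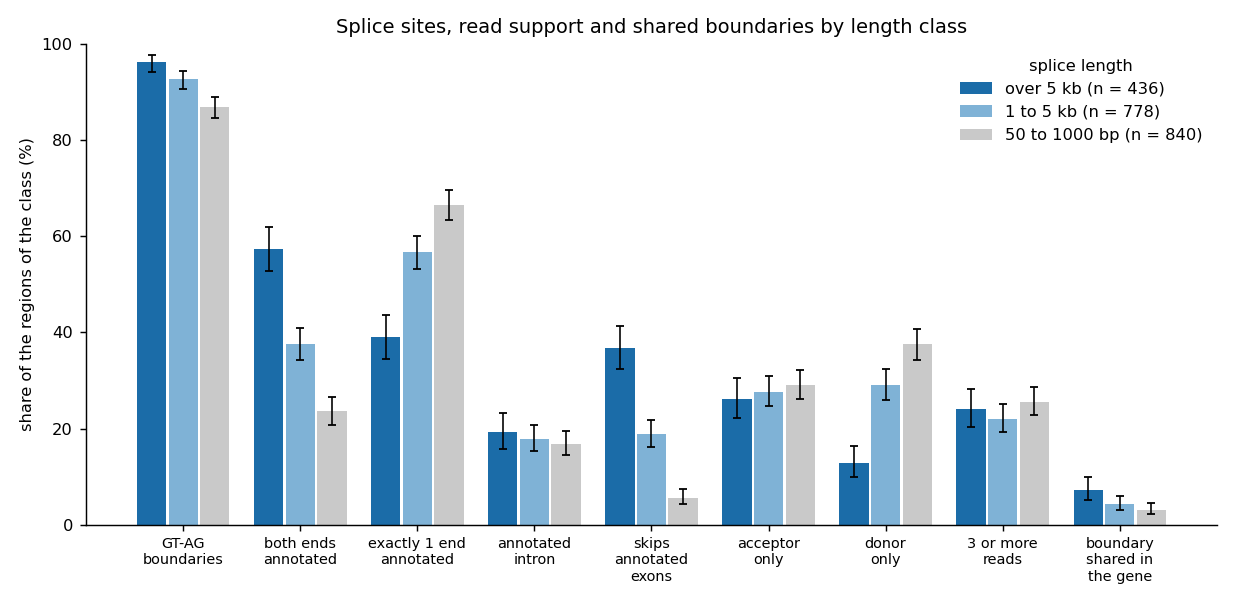
Share in percent (y axis) of the regions over 5 kb, of 1 to 5 kb and of 50 to 1000 bp with each property (x axis), with 95% Wilson intervals as error bars. On the strand of the gene, both ends were annotated in 57.3% of the regions over 5 kb and in 37.5% and 23.6% of the shorter classes. Exons were skipped in 36.7%, 18.8% and 5.6%.

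On the strand of the gene, an exact match to an annotated intron was found for 84 of the 436 regions (19.3%, 15.8% to 23.2%), against 17.9% and 16.8% of the shorter classes. The matches on the other strand under *Traf3ip2* and *Pi4kb* are not among them. Neither difference passed the test (odds ratio 1.1, adjusted p = 0.589, and 1.18, adjusted p = 0.372; two-sided Fisher's exact tests). Without the regions that skip exons both passed the exact test (odds ratio 1.55, adjusted p = 0.0126, and 2.02, adjusted p = 9.89e-05). This set, chosen after seeing the data, leaves out 36.7% of the regions over 5 kb, but 18.8% and 5.6% of the shorter classes. The share of annotated introns is thereby raised most over 5 kb, and nothing is drawn from these tests. These are introns of GENCODE vM1 that the authors' UCSC junctions did not filter out. Of the 84, 35 had 3 or more reads (41.7%, 31.7% to 52.3%). This was 34 of 160 (21.2%, 15.6% to 28.2%) for the regions that skip exons, 26 of 114 (22.8%) for those with only the acceptor annotated, 8 of 56 (14.3%) for those with only the donor annotated and 1 of 14 (7.14%) for those with neither. The differences between these kinds were not tested. Besides *Igfbp2* and *Galnt1*, the annotated introns included *Ythdf2*, which encodes a reader of methylated adenosine in RNA, with 23804 bp and 4 reads. *Ubap1*, which encodes a subunit of the ESCRT-I sorting complex, had 15325 bp and 4 reads. *Klhl13*, which encodes an adaptor of a cullin ubiquitin ligase, had 20849 bp and 3 reads.

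Skipping of annotated exons was the most frequent kind, with 160 of the 436 regions (36.7%, 32.3% to 41.3%). It was found in 146 of the 778 regions of 1 to 5 kb (18.8%) and in 47 of the 840 regions of 50 to 1000 bp (5.6%), a difference given without a test, since a gap that holds an exon and the introns around it is long by its construction. The gap skipped 1 exon in 124 regions, 2 in 23, 3 in 8, 4 in 3, 5 in 1 and 7 in 1. The exon that was skipped alone had a median length of 122.5 bp, with a range of 19 to 2432 bp. The most exons, 7 with 450 coding bases, were skipped by the 13776 bp gap of *Napg*, which encodes gamma-SNAP of membrane fusion. *Chfr*, the gene of a mitotic checkpoint ubiquitin ligase, skipped 5 exons with 579 bases in a gap of 15592 bp (chr5:110564954-110580545). A number of 4 exons was skipped in *Ccdc136* (13537 bp gap), in *Eif4enif1* (10793 bp) and in *Nisch* (15508 bp). All of these had 2 reads.

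In 126 of the 160 regions only coding bases were skipped, and their number was a multiple of 3 in 46 (36.5%, 28.6% to 45.2%). Of the 97 regions that skipped 1 wholly coding exon, the length was a multiple of 3 in 33 (34%, 25.4% to 43.9%). Among 164584 annotated internal coding exons of GENCODE vM1 it was 41.1%, which lies within that interval. In 19 of the 160 regions (11.9%) the gap took in an end of the coding sequence, and in 15 the skipped exons held no coding base. These counts use only 1 transcript per region, that with the fewest skipped exons. The same exons can be coding in other transcripts, which were not searched. Examples of regions with 4 reads in which only coding bases were skipped were *Git2*, a GTPase-activating protein of Arf proteins, with 6105 bp and *Farsb*, a subunit of phenylalanyl-tRNA synthetase, with 5558 bp, each with 1 exon skipped. *Sec63*, which encodes part of the translocation machinery of the ER, skipped 1 wholly coding exon in a gap of 11407 bp with 3 reads.

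Regions with a single annotated end had it at the acceptor in 114 of 170 (67.1%, 59.7% to 73.7%). Among the shorter regions it was at the acceptor in 215 of 441 (48.8%, 44.1% to 53.4%) from 1 to 5 kb and in 244 of 559 (43.6%, 39.6% to 47.8%) from 50 to 1000 bp. Over all regions of a class, those with only the acceptor annotated made up 26.1% (22.2% to 30.5%) over 5 kb, 27.6% from 1 to 5 kb and 29% from 50 to 1000 bp. Those with only the donor annotated made up 12.8% (10% to 16.3%), 29% and 37.5%. The share of the acceptor among single ends was therefore higher in the long regions with a lower share of donor-only regions, and not with a higher share of acceptor-only regions. These differences were not tested.

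The unannotated donors of these 114 regions lay in an intron in 93 and within an exon in 21. Their distance to the nearest annotated donor of the gene had a median of 1017.5 bp and was within 10 bp in 3, within 100 bp in 19 and within 1000 bp in 56. The unannotated acceptors of the 56 other regions lay in an intron in 35 and within an exon in 21. They were nearer to a known site of their kind in the lowest part of the range, with 11 within 10 bp, 21 within 100 bp and 29 within 1000 bp, and a median of 694 bp. The authors had removed regions within 5 bp of a known junction, so the counts at the shortest distances are those left after that filter. Acceptors a few bases off included *Tnk2* with 2 bp, *Igfbp2* with 4 bp and *Sumf1*, which encodes the enzyme that activates sulfatases in the ER, with 7 bp in a gap of 18321 bp with 3 reads.

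**Figure D3:**
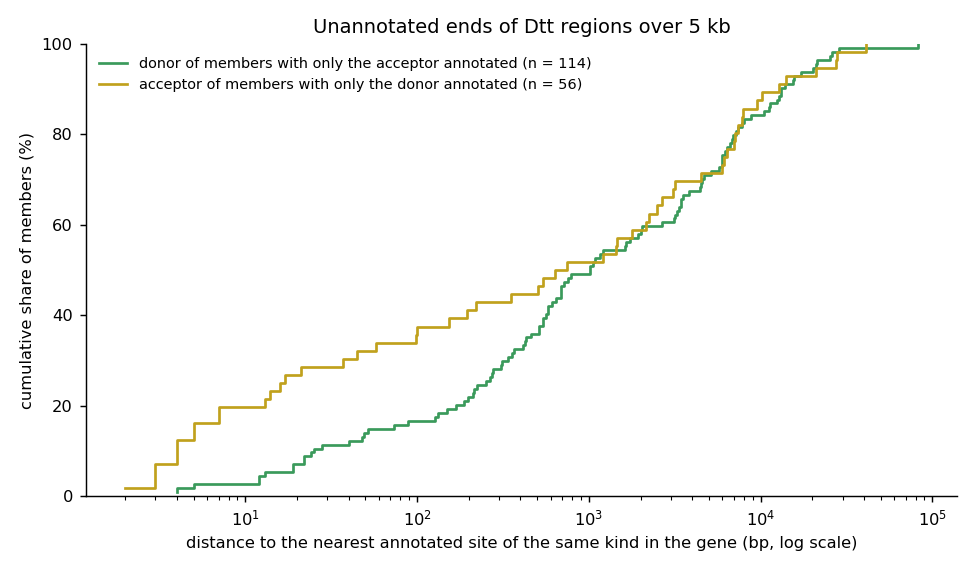
Cumulative share of regions in percent (y axis) by the distance in bp from an unannotated end to the nearest annotated site of the same kind in the gene (x axis, log scale), for 114 donors and 56 acceptors. Within 10 bp lie 11 of the 56 acceptors and 3 of the 114 donors, and within 1000 bp 29 and 56. Regions within 5 bp of a known junction had been removed by the authors.

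Many of the unannotated donors were joined to the second exon of a transcript. This was so for 69 of the 114 regions with only the acceptor annotated (60.5%, 51.4% to 69%) and for 59 of the 84 regions that match an annotated intron (70.2%, 59.8% to 79%). Among the 42242 annotated introns of the same length range the second exon was the acceptor in 40.4%. Of the 69 donors, 59 lay between exons 1 and 2, 5 inside exon 1, 4 upstream of the first exon of every transcript that has this second exon and 1 upstream of the nearest such first exon. Exons 1 and 2 are those of these transcripts, and other transcripts of the gene may start farther upstream. They were within 1000 bp of the annotated donor of exon 1 in 32 regions, and the median distance was 1082 bp. *Myh9*, *Sec31a*, *Cxxc5* and the 23599 bp gap of *Igfbp2* were of this kind, as was *Synpo*, which encodes an actin-associated protein, with 8974 bp and 4 reads and a donor upstream of the nearest first exon. Among those with 3 or more reads the farthest was the donor of *Hip1*, which encodes a clathrin adaptor, 55856 bp from the annotated donor in a gap of 28610 bp with 3 reads.

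First exons of mouse genes often lie in CpG islands, so CG dinucleotides were counted in the 100 bases upstream of each donor with GT-AG, a donor shared by several regions being counted once. The unannotated donors joined to exon 2 had a median of 3 CG, and 20 of 69 (29%) had 5 or more. Those joined to a later exon had a median of 2, and 2 of 45 (4.44%) had 5 or more. Annotated donors in the first exon had a median of 7 with 78 of 129 (60.5%), and later annotated donors a median of 2 with 18 of 169 (10.7%). Unannotated donors joined to exon 2 within 1000 bp of the annotated first donor had a median of 6, with 19 of 32 at 5 or more, and the farther ones a median of 2, with 1 of 37. The counts before the donor therefore were high near the annotated start and low away from it.

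**Figure D4:**
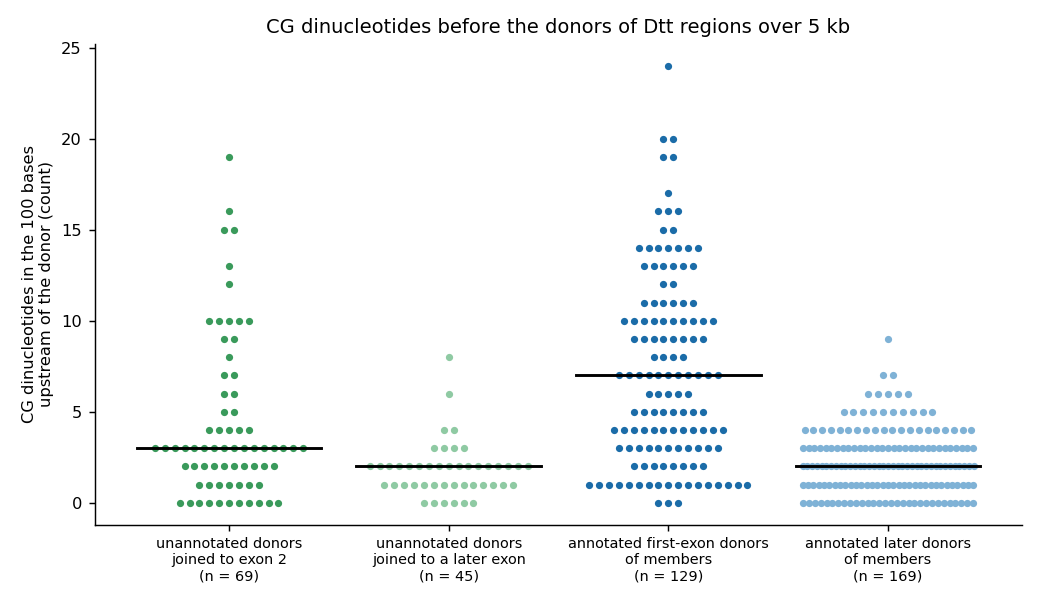
CG dinucleotides in the 100 bases upstream of the donor (y axis, count) for 4 groups of donors of the regions over 5 kb (x axis), with a point per distinct donor with GT-AG and a bar at the median. The medians are 3 and 2 for unannotated donors joined to exon 2 and to a later exon, and 7 and 2 for annotated donors of the first and of later exons.

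Of the 306 regions with an annotated donor, 133 (43.5%, 38% to 49.1%) had it in the first exon of a transcript, against 35.9% of the 42242 annotated introns of the same length range. By kind it was 53 of 84 annotated introns (63.1%, 52.4% to 72.6%), 55 of 160 exon-skipping regions (34.4%, 27.5% to 42%) and 23 of 56 regions with only the donor annotated (41.1%, 29.2% to 54.1%). The first exon was thus most frequent among the annotated introns.

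The extended donor motif GTNAGT, counted on the strand of the gene at GT-AG ends, was present at 100 of 298 annotated donors (33.6%, 28.4% to 39.1%) and at 25 of 116 unannotated donors (21.6%, 15% to 29.9%). Donors of annotated introns of the same length range had it in 33.6% (12532 of 37347). In the 20 bases before the AG, the median share of C or T was 75% at 355 annotated acceptors and 70% at 58 unannotated acceptors, beside 75% at 35956 annotated acceptors of introns of this length. The donors of *Myh9* and *Sec31a* shown above begin with GTGAGT, which is this motif, and that of *Fam149b* does not hold it.

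The 436 regions lay in 404 listed genes. Of these, 378 had 1 region over 5 kb, 21 had 2, 4 had 3 and 1 had 4. With another region of any length in the same gene there were 148 regions (33.9%), and 58 (13.3%) had another region over 5 kb. A listed boundary was shared to the base with another region over 5 kb by 22 regions (5.05%) and with any Dtt region of the gene by 31 (7.11%, 5.05% to 9.92%). The latter share was 4.24% from 1 to 5 kb, 3.1% from 50 to 1000 bp and 4.59% (22 of 479, 3.05% to 6.86%) from 2 to 49 bp, a class that was not tested. The difference from the class of 50 to 1000 bp passed the test (odds ratio 2.4, adjusted p = 0.003; two-sided Fisher's exact test) and that from the class of 1 to 5 kb did not (odds ratio 1.73, adjusted p = 0.0656). With regions of at least 3 reads, the difference from the class of 50 to 1000 bp also did not pass Fisher's exact test (odds ratio 3.27, adjusted p = 0.0734).

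Between regions over 5 kb there were 14 pairs with a shared listed boundary in 10 genes, 5 with a shared donor and 9 with a shared acceptor. *Igfbp2* had the most, with 4 regions and 16 reads. The gaps of 23611 bp (7 reads), 23599 bp (5 reads) and 16459 bp (2 reads) ended at the same annotated acceptor of a coding exon. Their donors lay at the annotated site, 12 bp after it and 7152 bp after it. The fourth gap, of 24125 bp with 2 reads, began at the annotated donor of a coding first exon and ended 4 bp past the shared acceptor. As the windows above show, the AG of this acceptor follows within the exon bases of the shared one.

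*Abi3bp* had 3 regions and 13 reads. Its gaps of 28768 bp (9 reads), 29235 bp (2 reads) and 31404 bp (2 reads) ended at the same acceptor and skipped 1, 2 and 3 exons of Abi3bp-202. They removed 63, 111 and 198 coding bases, each a multiple of 3. The donors of the 3 gaps were thus those of successive exons of this transcript, and the removed bases kept its reading frame. With the exons of all transcripts counted, 5 lay in the gap of 28768 bp.

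*Senp6* had 2 regions with 10 and 2 reads that shared the donor of the first coding exon. The gap of 24694 bp skipped 2 exons of Senp6-201 and that of 36121 bp, 11427 bp longer, was an annotated intron of another transcript of the gene. *Jup*, the gene of plakoglobin of cell junctions, had gaps of 11232 bp (4 reads) and 9497 bp (2 reads) with a shared acceptor in the 5′ UTR. The longer gap joined annotated sites that no annotated transcript joins, and the donor of the shorter lay in the intron 1735 bp away. *Galk2*, which encodes a galactokinase-like kinase, had gaps of 20351 bp (3 reads) and 13013 bp (2 reads) with a shared acceptor, and 1 of 8521 bp (2 reads) farther downstream, all with unannotated donors.

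*Tnk2*, the gene of a nonreceptor tyrosine kinase, had 3 regions with 2 reads each and the same donor in the 5′ UTR. The gap of 23112 bp was an annotated intron, that of 24278 bp skipped 3 exons of Tnk2-003, and that of 18632 bp ended 2 bp inside a 5′ UTR exon. The listed boundaries of the last differ from those of the others, and the donor is shared only once the gap is placed at GT-AG. *Eif3h* had 3 regions with 9 reads in all (7499, 11044 and 36868 bp) that shared no boundary, and the donors of the last pair were unannotated.

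**Figure D5:**
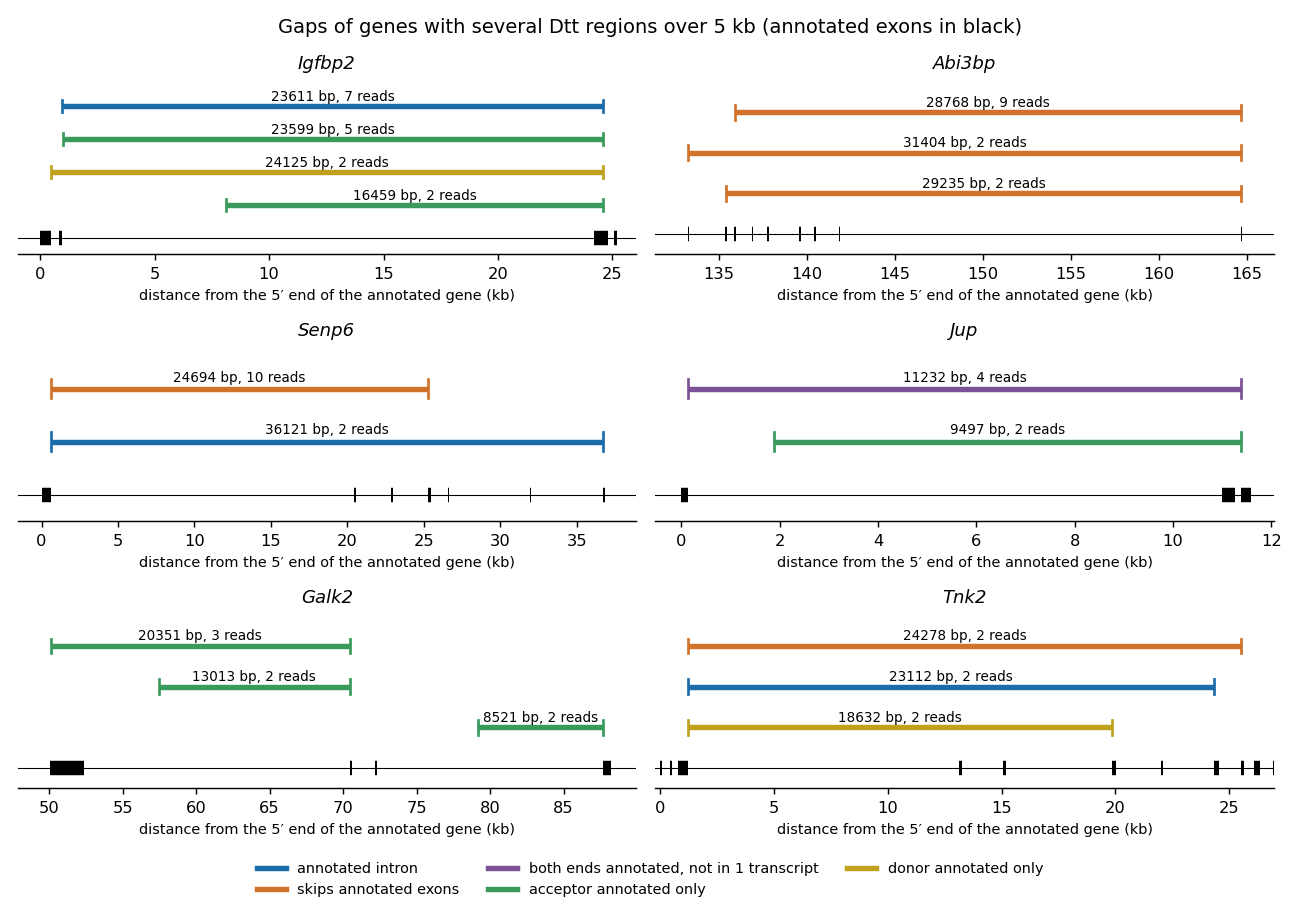
Gaps of the regions over 5 kb in 6 genes, drawn to scale as coloured bars along the distance in kb from the 5′ end of the annotated gene (x axis), with annotated exons of all transcripts in black and each gap's length and reads above it. In *Igfbp2*, *Abi3bp*, *Jup* and *Galk2* gaps end at a shared acceptor, and in *Senp6* and *Tnk2* they begin at a shared donor.

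The remaining 4 genes with a shared boundary had 2 regions of 2 reads each. In *Eif4enif1*, which encodes a transporter of the translation factor eIF4E, gaps of 10793 and 9299 bp began at the same donor and skipped 4 and 3 exons, 489 and 404 coding bases. In *Taf15*, the gene of a FET family RNA-binding protein, gaps of 8116 and 8848 bp began at the same donor and ended 732 bp apart. This donor is in the first exon of an annotated transcript that begins downstream of the start of the gene. In *Papd4*, gaps of 6816 and 6820 bp began at the same annotated donor and ended at adjacent AGs 4 bp apart, which the windows above show side by side. In *Sfxn1*, which encodes a mitochondrial serine transporter, gaps of 12978 and 13178 bp ended at the same 5′ UTR acceptor from unannotated donors 200 bp apart.

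Where a gap ends a short way before the next begins, the bases between them are kept in the mRNA and can be an exon. With a distance of 10 to 400 bp between the gaps and at least 1 gap over 5 kb, there were 18 such pairs in 17 genes. In 9 pairs the stretch between was an annotated exon, and in 3 it overlapped no annotated exon of the gene. These 3 stretches, in *Airn* (162 bp), *Fam164a* (117 bp) and *Mbnl1* (111 bp), were all multiples of 3 in length. In *Fam164a* and *Mbnl1* all gaps had GT-AG, while those of *Airn* had it on the other strand. No read was shown to cross both gaps of a pair, so it is not known whether they belong to 1 transcript.

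The stretches of *Fam164a*, at chr3:7535921-7536037, and of *Mbnl1*, which encodes a regulator of alternative splicing, at chr3:60400641-60400751, both on the plus strand, are shown because they overlap no annotated exon of their gene. Exons of other genes were not searched there. In *Fam164a* the gap before had 7236 bp and an annotated donor, and the gap after had 3038 bp and an annotated acceptor. In *Mbnl1* they had 954 and 6864 bp and also led from an annotated donor to an annotated acceptor. Each of these gaps had 2 reads. Capitals mark the AG at the end of the gap before and the GT at the start of the gap after.
Fam164a: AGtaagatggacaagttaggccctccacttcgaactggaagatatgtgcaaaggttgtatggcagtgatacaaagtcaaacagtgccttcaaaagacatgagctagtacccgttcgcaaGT
Mbnl1: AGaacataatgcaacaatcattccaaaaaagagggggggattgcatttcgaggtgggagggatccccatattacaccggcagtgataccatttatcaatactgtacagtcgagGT
The 117 bases had a GC content of 44.4% and the 111 bases of 44.1%. Each of the stretches had 1 of the 3 frames of this strand without a stop codon.

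The genes were also counted by function, with lists written when the names in the table were known, so that the counts are descriptions and the shares are not independent of that choice. Of the 1990 listed genes with a Dtt region, 404 (20.3%) had one over 5 kb. The list of the ER and the secretory pathway had 65 genes, of which 25 had a Dtt region and 14 a region over 5 kb. *Sec31a* had the most reads among them, with 6. Of 63 genes of extracellular matrix and secreted factors, 39 had a Dtt region and 17 had 24 regions over 5 kb, with *Abi3bp* and *Igfbp2* as the highest. Of 59 genes of the cytoskeleton and adhesion, 43 had a Dtt region and 26 had one over 5 kb, led by *Myh9*. The regions with 9, 7 and 6 reads in these lists are those described above.

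Among 45 genes of small GTPases and their regulators, 20 had a Dtt region. All 20 also had one over 5 kb, which the choice of the genes for this list can fix, and *Rin3* led with 5 reads. Of 46 genes of translation, 28 had a Dtt region and 12 a long one, such as *Eif3h* and *Eef2k*, which encodes the kinase of elongation factor 2, with an annotated intron of 13554 bp and 3 reads. Of 52 genes of transcription factors and chromatin proteins, 38 had a Dtt region and 33 a long one. Of 47 genes of ubiquitin and SUMO enzymes the numbers were 29 and 24, with *Senp6* at the top. Of 49 genes of splicing and RNA-binding proteins they were 28 and 19, and these included *Srpk2*, a kinase of SR splicing factors, with 5769 bp and 4 reads, and *Rqcd1*, a subunit of the CCR4-NOT complex, with 10855 bp and 3 reads. The lists were not matched for gene length, and nothing is drawn from the differences between them.

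In the Tg list, 7 of 55 regions were over 5 kb, with 5155 to 21870 bp and 2 reads each. They lay in *Best3*, *Slc1a6*, *Csnk1g3*, *Acp2*, *Tpst1*, *Clasp2* and *Bgn*. No region over 5 kb of the Dtt list overlapped or shared a boundary with a Tg region of the same gene. *Fhl1*, *Ltbp1*, *Adamts9* and *Nav2* had a long region in the Dtt list and a shorter one elsewhere in the gene in the Tg list, for *Fhl1* 8080 bp with 2 reads and 1797 bp with 4 reads. The Tg reads had 35 nt and the Dtt reads 79 nt, so the lists differ in what they could detect.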

How the data were processed

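RNA-Seq reads of *Ire1*α Het and KO MEFs, 1 library per genotype in each of 2 experiments, had been reduced by the authors to lists of spliced regions. Per the labels and the study's methods, reads were mapped with Bowtie to mm9 and UCSC junctions, and unmapped Dtt reads of 79 nt were trimmed to 77 nt and split into parts of 11 to 66 nt. The parts were mapped without mismatches, at most 40 kb apart, and split reads of equal splice length with boundaries within 27 bp were joined. Regions within 5 bp of a known junction, with fewer than 2 reads or with a match in the KO library were removed. The deposited counts are reads that support a region in the Het library, without normalization, and the splice lengths and boundaries in bp are the authors' own values. The columns for KO contain hyphens only, and the number of further per-sample columns left aside was 0.

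All 2533 Dtt regions were annotated and 436 over 5000 bp described. The members, gene lists and tests were chosen with earlier results of these data known. Coordinates, sequences and annotation came from the NCBIM37 assembly (mm9) and GENCODE vM1. The gene was found by symbol for 427 of the 436 regions, by position for 7 and not at all for 2. The listed boundaries were read as the start and end of the gap, since of 132 regions over 1 kb whose boundaries leave no room 119 had GT-AG there and at most 2 at any shift by 1 to 5 bp. All positions of the gap between the listed boundaries, and those up to 60 bp away that give the same joined sequence, were searched, and a position at an annotated intron was taken first, then those with GT-AG and then those with annotated ends. A region was said to skip exons when both ends are sites of 1 transcript with exons between.

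Shares have 95% Wilson intervals, which cover counting error only, and 12 differences between length classes were tested with two-sided Fisher's exact tests, Benjamini-Hochberg adjusted, at a threshold of 0.05. The steps were tested on simulated data. The genes named had 5 or more reads, were among the 5 longest or the 3 on either side of 5000 bp, had 3 or more regions or regions with a shared boundary (values for up to 8), had an unannotated stretch between paired gaps, skipped the most exons (3) or led a gene list (3 each). Regions of a gene with an overlapping Tg region were also to be named, and there were 0. Genes named outside this rule were chosen after their values were seen. Alternatives were other length and read limits, 1 region per gene, placements within the listed boundaries, protein-coding genes only, either strand, wider or placed boundaries and the set without regions that skip exons. Python 3.11.15, numpy 2.4.6, scipy 1.17.1, pysam 0.24.0 and matplotlib 3.10.9 were used.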

Additional observations from a re-analysis of the deposited data

How the results depend on the processing

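Of 69 values under an alternative, 54 had the same direction and test call or, for shares and counts, stayed within the Wilson interval or 1.5 times the value reported. With at least 3 reads, the share with GT-AG was 99%, that of annotated introns 33.3%, that with both ends annotated 66.7% and that with exactly 1 annotated end 32.4%, and the odds ratios lost from the exact tests were 4.44 for GT-AG against 1 to 5 kb and 3.27 for shared boundaries against 50 to 1000 bp. Without the regions that skip exons, the odds ratio for GT-AG against 1 to 5 kb was 1.69 and no longer passed, those for annotated introns were 1.55 and 2.02 and passed, and that for 3 or more reads against 50 to 1000 bp turned from below 1 to 1.02, which did not pass either. On either strand GT-AG reached 99.5%. With 1 region per gene, 4.46% shared a boundary. Only 1 region over 5 kb of each gene is then counted, while every Dtt region of the gene can still be its partner. The number of regions was 207 over 10000 bp, 105 with at least 3 reads and 13 with at least 5 reads. The cause of the changes with read number was not tested. Placements within the listed boundaries, protein-coding genes only and the limits of 4000 and 6000 bp changed none of these values beyond those bounds. The equality of placed ends and the set without regions that skip exons were chosen after seeing the data. The set without regions that skip exons loses a larger part of the regions over 5 kb than of the shorter classes, so its tests are tied to length. No paired analysis was possible because a group consists of a single library and no KO number is listed. With 75.9% of the regions at 2 reads, most regions have no support beyond the minimum of the method.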

Other observations

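Some paired gaps enclosed an annotated exon or bases that overlap an exon. In *Ywhab*, which encodes a 14-3-3 protein, an annotated intron of 15730 bp with 4 reads was followed, after an annotated exon of 303 bases, by a gap of 2104 bp with 2 reads whose acceptor is not annotated. In *Morf4l2*, a chromatin gene, a gap of 5587 bp with 4 reads skipped 1 exon of 90 bases in the 5′ UTR, and 75 bases that overlap an exon separated it from a gap of 1046 bp with 2 reads. In *Hbegf*, the exon of 156 bases after the 7482 bp gap was followed by a gap of 707 bp with 2 reads. *Siah2*, the gene of a ubiquitin ligase, had a gap of 5673 bp and an annotated intron of 9106 bp with 2 reads each, with 173 bases between them.

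Of 23 unannotated ends, in regions whose other end is annotated, within 20 bp of an annotated site, 5 lay at a distance that is a multiple of 3, among them the 4 below. These are ends left after the authors' removal of regions within 5 bp of a known junction. The acceptor of the 9875 bp gap of *Fam113b* (3 reads) lay 3 bp before the annotated acceptor, and those of *Ppp1r10* (5594 bp) and *Rell1* (13586 bp), with 2 reads each, lay 3 bp after it. The donor of the 6695 bp gap of *Snx12*, a sorting nexin, lay 12 bp before the annotated donor in the coding first exon, with 3 reads. These genes were chosen after their values were seen.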
